A study of Mus musculus with 12 samples.

Results

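The cyclin-dependent kinase (CDK) inhibitors are a set of 7 genes, Cdkn1a, Cdkn1b, Cdkn1c, Cdkn2a, Cdkn2b, Cdkn2c and Cdkn2d, which were taken by symbol from the 21937 genes listed for mouse brain myelin. All 7 were listed, and each had a value in all 12 libraries. The libraries came from wild-type mice, male c57Bl6/N according to the methods of the study, at 4 ages: postnatal day 18 (P18), postnatal day 75 (P75), 6 months and 24 months, with 3 libraries at each age. No mutation or treatment was part of the design. RNA was isolated from the light membranes of brain, a preparation enriched in myelin and not a sort of cells, and the age groups did not share mice. The study describes the libraries of 6 months as coming from individual brains. For the other ages neither it nor the labels say whether the 3 libraries came from separate animals, and the p-values then measure only the spread between these libraries.

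CDK inhibitors bind the kinases that drive the cell cycle and hold them inactive. The CIP/KIP family consists of p21 (Cdkn1a), p27 (Cdkn1b) and p57 (Cdkn1c), which bind complexes of a CDK with its cyclin and act mainly on CDK2. The INK4 family consists of p16 (Cdkn2a), p15 (Cdkn2b), p18 (Cdkn2c) and p19 (Cdkn2d), which bind CDK4 and CDK6 and keep the D cyclins from activating them. In the oligodendrocyte lineage p27 and p57 are known for the exit of precursors from the cell cycle as they differentiate. Raised p21 and p16 are widely used as marks of cellular senescence, a lasting arrest in which cells also secrete inflammatory factors. Cdkn2a also encodes the p53 activator p19ARF from a different first exon, and gene-level values cannot tell these products apart.

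The promoters below are shown to set members with different courses over age side by side: Cdkn1a and Cdkn1b, the most abundant members, Cdkn2c, which declined up to 6 months, and Cdkn2d, whose course differed from that of the others. Sequences are from RefSeq on GRCm38.p6, 5′ to 3′ on the strand of the gene, with 250 bases before and 50 bases after a transcript start, and they lie at chr17:29090729-29091028 (+) for the upstream start of Cdkn1a, chr6:134920151-134920450 (+) for Cdkn1b, chr4:109666707-109667006 (-) for the upstream start of Cdkn2c and chr9:21291160-21291459 (-) for Cdkn2d. Capitals mark matches on either strand to 6 motifs: the TATA box TATAAA, the GC box GGGCGG, the CCAAT box CCAAT, the E-box CACGTG, the forkhead motif GTAAACA and the full p53 site, made of a pair of adjoining 10-base half-sites with at most 1 mismatch.
Cdkn1a: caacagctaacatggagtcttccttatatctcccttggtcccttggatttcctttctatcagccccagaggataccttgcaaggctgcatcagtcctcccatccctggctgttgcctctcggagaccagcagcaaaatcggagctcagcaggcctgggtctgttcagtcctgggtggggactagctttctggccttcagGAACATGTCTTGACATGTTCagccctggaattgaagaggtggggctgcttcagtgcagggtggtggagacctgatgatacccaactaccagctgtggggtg
Cdkn1b: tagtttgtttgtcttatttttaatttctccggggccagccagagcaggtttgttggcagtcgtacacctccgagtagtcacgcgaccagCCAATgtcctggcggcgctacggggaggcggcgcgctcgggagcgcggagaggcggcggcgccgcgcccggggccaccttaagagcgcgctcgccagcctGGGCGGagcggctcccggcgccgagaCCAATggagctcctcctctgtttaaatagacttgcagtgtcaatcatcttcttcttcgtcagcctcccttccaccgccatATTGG
Cdkn2c: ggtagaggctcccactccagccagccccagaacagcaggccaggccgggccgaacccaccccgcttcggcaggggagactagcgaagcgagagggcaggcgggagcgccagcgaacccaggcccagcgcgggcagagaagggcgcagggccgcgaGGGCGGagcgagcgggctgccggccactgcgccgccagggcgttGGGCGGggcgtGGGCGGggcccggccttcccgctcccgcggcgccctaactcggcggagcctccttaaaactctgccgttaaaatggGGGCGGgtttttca
Cdkn2d: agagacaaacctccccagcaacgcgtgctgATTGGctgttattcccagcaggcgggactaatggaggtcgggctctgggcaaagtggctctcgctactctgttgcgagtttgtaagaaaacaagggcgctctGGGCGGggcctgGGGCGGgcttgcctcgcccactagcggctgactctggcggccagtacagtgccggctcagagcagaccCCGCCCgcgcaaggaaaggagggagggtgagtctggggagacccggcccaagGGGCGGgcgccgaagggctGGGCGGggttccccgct

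The upstream start of Cdkn1a held a full p53 site with 1 mismatch, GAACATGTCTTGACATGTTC, which began 51 bases before the start. In the search the C and G at the core of each half-site had to match. The downstream start of Cdkn1a held no full p53 site and 2 GC boxes, and gene-level values do not tell the starts apart. A full p53 site was found in 22 of the 32851 promoter entries (0.067%). Cdkn1a is a classical target of p53. The promoter of Cdkn2d held 5 GC boxes and 1 CCAAT box, that of Cdkn2c at its upstream start 4 GC boxes, and that of Cdkn1b 1 GC box and 3 CCAAT boxes, with no overlap between GC boxes. GC boxes were present in 35.7% and CCAAT boxes in 37.4% of all entries. The TATA box (13.6% of all entries) and the forkhead motif (3.65%) were in none of the 9 entries of the 6 members that had one, and the E-box (7.15%) was in 1 of them, at the downstream start of Cdkn2c. Cdkn1c was not among the entries.

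On NCBIM37 (mm9), the build of the deposited table, Cdkn1a lies at chr17:29227924-29237667 (+), Cdkn1b at chr6:134870419-134875531 (+) and Cdkn1c at chr7:150644255-150646955 (-). Cdkn2a at chr4:88920377-88940557 (-) and Cdkn2b at chr4:88952198-88956941 (-) are neighbours. Cdkn2c lies at chr4:109333481-109339794 (-) on the same chromosome, and Cdkn2d at chr9:21092907-21095653 (-). None of the 7 overlaps another gene annotated in GENCODE vM1, so that no annotated partner shares their position. Transcripts outside this annotation were not examined. Merged exons range from 1170 bases for Cdkn2a to 4552 bases for Cdkn1b.

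Sequencing depth was similar between libraries, with 20299052 to 27214385 reads on genes and 16949 to 17261 genes with at least 1 read per library. Myelin genes were present in every library. Mbp alone took 9.47% to 20.8% of the reads at P18 and 4.76% to 8.48% at the later ages. Markers of other cells were present as well: the summed normalized read count of 13 microglial genes was 7062 to 8153 at P18, 10041 to 11119 at P75, 11751 to 13218 at 6 months and 17655 to 21815 at 24 months. The sum of 12 neuronal genes was 173997 to 212761 at P18, 204085 to 232791 at P75, 187662 to 193521 at 6 months and 177490 to 184363 at 24 months. For 11 astrocyte genes it was 104848 to 126631, 114178 to 120487, 108938 to 122221 and 106837 to 115958 in order of age. In such bulk samples fewer cells of a type and less RNA per cell cannot be told apart. All values given here are normalized read counts, that is, reads divided by the DESeq size factor of the library. Ages were compared with limma on log2(normalized read count + 1) in 14634 genes with a mean of at least 10. The threshold for a call was an adjusted p under 0.1 (Benjamini-Hochberg over all genes tested), and fold changes on this scale understate those of low genes.

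The CIP/KIP genes were far more abundant than the INK4 genes. Per kilobase of merged exon the mean level over the 12 libraries was 353 for Cdkn1b, 202 for Cdkn1a, 118 for Cdkn1c, 30.6 for Cdkn2c, 24.8 for Cdkn2d, 4.29 for Cdkn2b and 2.29 for Cdkn2a. The order Cdkn1a over Cdkn1c over Cdkn2c held in all 12 libraries, as did Cdkn2d over Cdkn2b. Cdkn1b was above Cdkn1a in 11 of 12 libraries, the exception being P18 replicate 3, where Cdkn1a was at its highest. Cdkn2b exceeded Cdkn2a in 10 of 12 libraries. Cdkn2c and Cdkn2d could not be ordered over all ages, since Cdkn2c was higher in only 8 of 12 libraries, and the ratio of the levels per kilobase ranged from 0.482 to 2.84. Before length correction the INK4 genes together contributed 4.37% to 5.71% of the normalized reads of the 7 genes. By this measure the balance of the families moved little while the individual members changed. Per kilobase the mean share of Cdkn2d went from 2.71% at P18 to 5.49% at 6 months, and that of Cdkn2c from 4.30% to 3.21%. Without length correction Cdkn1b ranked 2884th of the 21937 listed genes by its mean of 1607, and Cdkn2a ranked 15996th with a mean of 2.68.

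**Figure D1:**
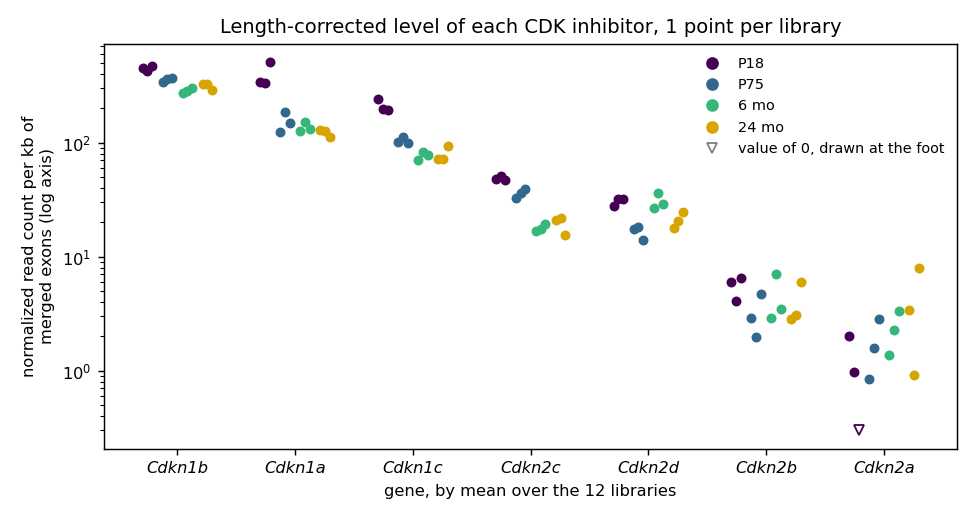
Normalized read count per kilobase of merged exon (log axis) for each CDK inhibitor, ordered by its mean over the 12 libraries, with 1 point per library and colours for the 4 ages. The means descend from 353 for Cdkn1b to 2.29 for Cdkn2a, the points of Cdkn2c and Cdkn2d cross between ages, and the open triangle marks a library in which Cdkn2a was at 0.

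Of the 7 members, Cdkn1a, Cdkn1b, Cdkn1c, Cdkn2c and Cdkn2d passed the filter on low values, while Cdkn2a and Cdkn2b did not. Each of these 5 differed between ages in the moderated F-test of limma, with adjusted p from 1.63e-07 for Cdkn1c to 0.00268 for Cdkn2d. This alone sets them little apart, as 83.8% of the tested genes were called in the same test. All 5 had their highest mean at P18, which was the age of the highest mean for 32.8% of the tested genes.

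Cdkn1a, the p53 target that encodes p21, was high in young myelin and low thereafter. At P18 its normalized read counts were 765, 746 and 1127. They were 275, 415 and 332 at P75, then 283, 339 and 295 at 6 months, followed by 290, 283 and 250 in the oldest mice. Every P18 library was thus above every later one, and the 3 later ages overlapped from step to step. Such separation was common, as the libraries of 47.7% of all tested genes did not overlap between P18 and P75, 63.1% between P75 and 6 months, 43.5% between 6 and 24 months, 57.5% between P75 and 24 months and 66.6% between P18 and 24 months. The mean went from 879 ± 215 (SD, n = 3) at P18 to 341 ± 70.8 at P75, a drop of 61.3%. In limma the log2 change from P18 to P75 was -1.36 (SE 0.16, adjusted p = 1.01e-05), and 22.9% of all tested genes fell in this comparison. From P75 to 6 months it was -0.14 (95% CI -0.48 to 0.20, adjusted p = 0.478) and from 6 to 24 months -0.15 (95% CI -0.49 to 0.19, adjusted p = 0.53). Neither later step passed the test. The oldest libraries therefore had no detectable rise in p21 transcript, and the interval of the last step reaches at most 0.19 on the log2 scale. Between P18 and 24 months the log2 change was -1.65 (SE 0.16, adjusted p = 1.83e-07), in a comparison in which 34.3% of the tested genes fell.

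Cdkn1b, which encodes p27, was the most abundant member and changed least in relative terms among the CIP/KIP genes from P18 to P75. The values were 2071, 1932 and 2159 at P18 and 1538, 1653 and 1697 at P75. At 6 months they were 1246, 1304 and 1386, and at 24 months 1478, 1489 and 1326. Thus the P18 libraries were highest, P75 was next with no overlap, and 6 and 24 months overlapped. Means were 2054 ± 114, 1629 ± 82.0, 1312 ± 70.1 and 1431 ± 91.3 in order of age. Cdkn1b fell by 0.33 on the log2 scale from P18 to P75 (adjusted p = 0.00393 in limma) and again by 0.31 from P75 to 6 months (adjusted p = 0.00433). In the latter comparison 60.6% of all tested genes changed. From 6 to 24 months the log2 change was 0.12 (95% CI -0.05 to 0.30, adjusted p = 0.296). The net difference between P75 and 24 months, -0.19 (adjusted p = 0.0698, with 54.9% of all tested genes called), was lost without P75 replicate 2 (adjusted p = 0.149), P75 replicate 3 (0.178) or 24 months replicate 3 (0.254).

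Cdkn1c, the imprinted gene of p57, followed a similar course at a lower level. It was at 463, 382 and 373 at P18, at 194, 216 and 191 at P75, at 136, 161 and 150 at 6 months, and at 140, 138 and 180 at 24 months. P18 stood above P75 and P75 above both later ages without overlap, whereas 6 and 24 months overlapped. Its mean went from 406 ± 49.96 at P18 to 201 ± 13.5 at P75 and 149 ± 12.1 at 6 months, and was 153 ± 23.4 in the oldest group. The log2 change was -1.01 (SE 0.13, adjusted p = 2.22e-05) in the first step and -0.43 (SE 0.13, adjusted p = 0.011) in the second, both in limma. For the last step it was 0.03 (95% CI -0.25 to 0.30, adjusted p = 0.914). This last estimate has no settled sign: it was -0.01 when each library was scaled to the same total and -0.05 after quantile normalization.

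Cdkn2c, the INK4 gene of p18, had its larger drop later than the CIP/KIP genes. Values were 128, 138 and 127 at P18, 88.2, 97.4 and 106 at P75, 45.5, 47.0 and 51.6 at 6 months, and 56.5, 58.4 and 41.7 at 24 months. P18, P75 and the adult pair of ages were separate, and the 6 and 24 month libraries overlapped. From means of 131 ± 6.07 at P18 and 97.2 ± 8.97 at P75 it reached 48.0 ± 3.16 at 6 months and 52.2 ± 9.16 at 24 months. In limma the log2 change from P75 to 6 months was -1.0 (SE 0.16, adjusted p = 7.15e-05). The smaller change from P18 to P75, -0.43 (SE 0.16, adjusted p = 0.0387), was lost without P18 replicate 2 (adjusted p = 0.112) or P75 replicate 1 (0.127). Between 6 and 24 months it was 0.10 (95% CI -0.23 to 0.44, adjusted p = 0.683), and -0.01 after quantile normalization.

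**Figure D2:**
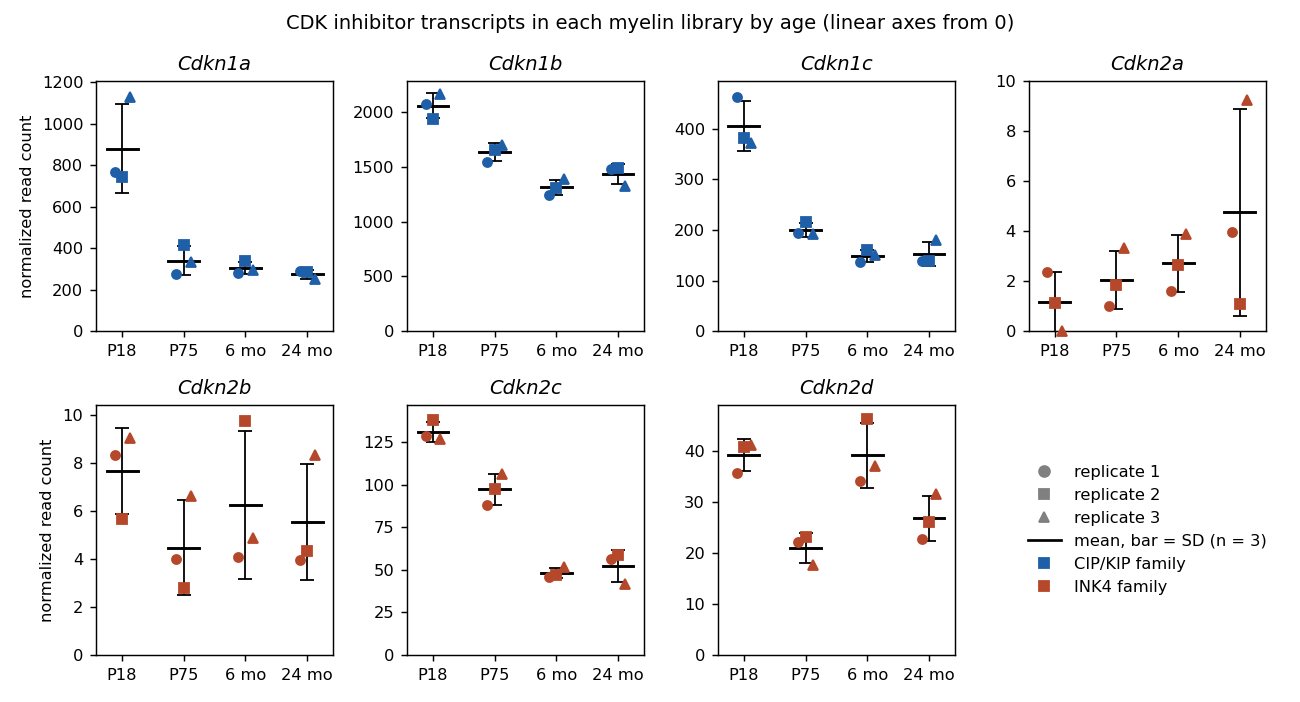
Normalized read counts of the 7 CDK inhibitors on linear axes that start at 0, with 1 symbol per library, a horizontal bar for the mean and a vertical bar for the SD (n = 3) at P18, P75, 6 months and 24 months. Cdkn1a, Cdkn1b, Cdkn1c and Cdkn2c are highest at P18, Cdkn2d is as high at 6 months (mean 39.1) as at P18 (mean 39.2), and Cdkn2a and Cdkn2b stay under 10 in every library.

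Cdkn2d, the INK4 gene of p19, went down, up and down again. Its values were 35.7, 40.7 and 41.2 at P18, 22.1, 23.2 and 17.7 at P75, 34.1, 46.2 and 37.0 at 6 months, and 22.8, 26.0 and 31.5 at 24 months. P18 and 6 months overlapped as the higher ages, P75 and 24 months overlapped as the lower ones, and the higher and lower ages were separate. The means were 39.2 ± 3.06, 21.0 ± 2.90, 39.1 ± 6.29 and 26.7 ± 4.39. Cdkn2d fell by 0.88 on the log2 scale from P18 to P75 (SE 0.21, adjusted p = 0.00351 in limma) and rose by 0.86 from P75 to 6 months (SE 0.21, adjusted p = 0.00269), as the only one of the 5 tested members that rose in any comparison. The log2 change from 6 to 24 months was -0.53 (SE 0.21, adjusted p = 0.0848), with 29.3% of all tested genes called. This call rests on 23 to 52 reads per library and was lost without 6 months replicate 1 (adjusted p = 0.112), 2 (0.274) or 3 (0.124) and without 24 months replicate 1 (0.24) or 2 (0.182). It was also lost in DESeq2 on the recovered reads (adjusted p = 0.162). The net change from P18 to 24 months, -0.54 (adjusted p = 0.0339), was lost without 24 months replicate 1 (0.115).

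As Cdkn2c dropped and Cdkn2d rose, the balance of the INK4 genes changed between P75 and 6 months. The ratio of the Cdkn2d to the Cdkn2c normalized read count was 0.278 to 0.325 at P18 and 0.167 to 0.250 at P75. It was 0.717 to 0.981 at 6 months and 0.404 to 0.756 at 24 months. Both adult ages were thus above both younger ages in every library, and 6 and 24 months overlapped. Within the CIP/KIP family the ratio of Cdkn1a to Cdkn1b was 0.369 to 0.522 at P18 and 0.179 to 0.260 at the later ages, so that the transcript of p21 was lower relative to that of p27 after P18.

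**Figure D3:**
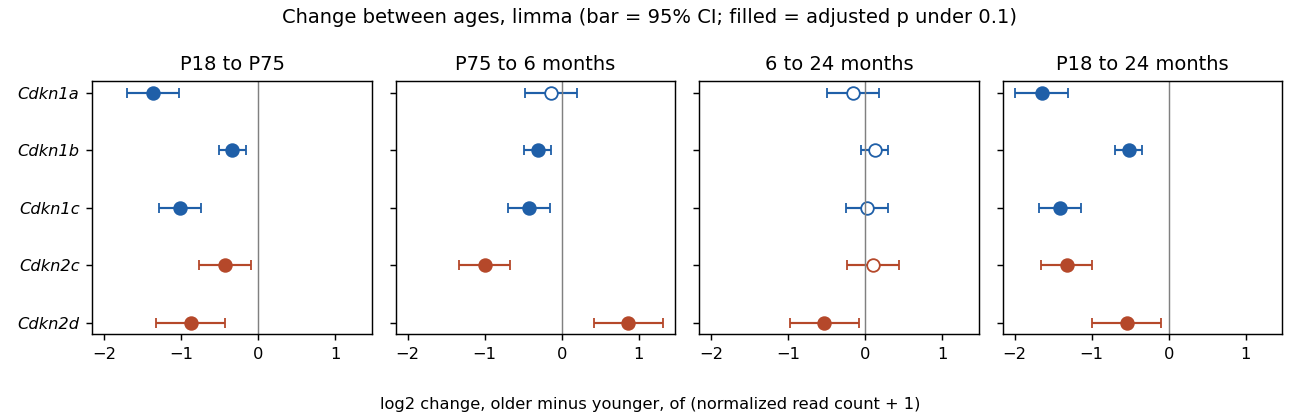
Log2 change of (normalized read count + 1), older minus younger age, for the 5 CDK inhibitors that passed the filter, from limma over the 12 libraries, with 95% confidence intervals and filled points for an adjusted p under 0.1. All 5 lie below 0 from P18 to P75 and from P18 to 24 months, Cdkn2d alone lies above 0 from P75 to 6 months at 0.86, and between 6 and 24 months the filled point of Cdkn2d lies at -0.53.

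Cdkn2a, the gene of p16 and p19ARF, was close to the limit of detection at every age. The normalized read counts were 2.38, 1.13 and 0 at P18, 1, 1.85 and 3.32 at P75, 1.62, 2.66 and 3.89 at 6 months, and 3.96, 1.08 and 9.26 at 24 months. They correspond to 3, 6, 9 and 15 reads in all at the 4 ages, of which 10 fell into 24 months replicate 3. The means were 1.17, 2.06, 2.72 and 4.77 in order of age, but all ages overlap, and 24 months replicate 2 was below the highest P18 library. For the library at 0, 3 reads would amount to 3.01 normalized counts. Pooled over the libraries of an age, there were 0.449 reads per 10000000 reads on genes at P18 (exact 95% Poisson interval 0.0926 to 1.31, covering counting error only) and 2.14 (1.2 to 3.52) at 24 months. An exact two-sided permutation test of the means gave p = 0.3 for P18 against 24 months and p = 0.6 for 6 against 24 months (n = 3 per age, where 0.1 is the smallest p possible). Without the filter on low values, limma called the change from P18 to 24 months at a log2 change of 1.29 (adjusted p = 0.0657) and not that from 6 to 24 months, 0.39 (adjusted p = 0.693). A difference in p16 or p19ARF transcript between adult ages was not detectable at this depth.

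Cdkn2b, the gene of p15 next to Cdkn2a, was similarly sparse and had no order over age. It was at 8.32, 5.65 and 9.04 at P18, 4.01, 2.78 and 6.63 at P75, 4.06, 9.76 and 4.87 at 6 months, and 3.96, 4.32 and 8.33 at 24 months. These are 21, 13, 21 and 17 reads in all, and every age overlapped the next. The exact permutation test gave p = 0.2 for P18 against P75 and p = 0.6 for 6 against 24 months (n = 3 per age).

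The fall from P18 to P75 depended in part on how libraries were scaled. When each library was scaled to the same total, the tested genes as a whole moved in their median log2 change from 0.02 to 0.14, and the split went from 3783 higher and 3354 lower to 4739 higher and 1827 lower. Cdkn1b (-0.21, adjusted p = 0.158) and Cdkn2c (-0.30, adjusted p = 0.177) were then no longer called. Relative to that median they were at -0.35 and -0.44. Cdkn1a (-1.23), Cdkn1c (-0.88) and Cdkn2d (-0.76) remained called.

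The courses of the members were compared over the 12 libraries, which share age groups, so the correlations are descriptions only. Cdkn1a, Cdkn1b, Cdkn1c and Cdkn2c correlated with each other at Pearson r of 0.80 to 0.94. Cdkn2d correlated with them at -0.07 to 0.47. The 3 genes most similar to Cdkn1a were Dctn2 (r = 0.979), Glrx (0.978) and Fgf13 (0.977), those most similar to Cdkn1b were Nap1l5 (0.981), Eif1ad (0.978) and Med8 (0.978), and those most similar to Cdkn1c were Snx3 (0.989), Pbx2 (0.987) and Zfp579 (0.986). Nearest to Cdkn2c were Rimklb (0.9904), Pop4 (0.989) and Trpt1 (0.985). Nearest to Cdkn2d were Palm (0.978), Zfp385a (0.966) and Snrpb (0.965). Palm, a membrane-associated phosphoprotein, had means of 4053, 2749, 3889 and 3097 in order of age and thus the same alternation as Cdkn2d.

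Next the kinases and cyclins on which the inhibitors act were examined. Cdk4, the target of the INK4 proteins, fell by 0.60 from P18 to P75 (adjusted p = 6.71e-05 in limma) and by 0.33 from P75 to 6 months (adjusted p = 0.00429), from a mean of 1544 at P18 to 811 at 6 months and 798 at 24 months. Cdk6, the other INK4 target, had means of 2.0 to 2.94 and failed the filter. Cdk2 fell by 0.63 in the first step (adjusted p = 0.0545), from 51.4 to 32.6. The mitotic kinase Cdk1 fell by 0.66 in the first step and by 1.36 in the second (adjusted p = 0.0379 and 0.000193), to a mean of 12.6 at 6 months. Among their partners, Ccnd2 had means of 592, 337, 624 and 399 and Ccnd3 means of 284, 203, 327 and 258, and both were called down, up and down in consecutive steps, as was Cdkn2d. For Ccnd1 the change from 6 to 24 months passed the test (-0.28, adjusted p = 0.0546), and the earlier steps did not (adjusted p = 0.789 and 0.299). The CDK2 activator Ccne1 passed in no consecutive step (adjusted p = 0.56, 0.146 and 0.915). The A cyclins Ccna1 and Ccna2 fell from P75 to 6 months by 0.89 and 0.94 (adjusted p = 0.0212 and 0.000924), and Ccna2 rose by 0.63 thereafter (adjusted p = 0.038). Of the 12 tested CDKs and cyclins, 6 fell and 1, Ccne2, rose from P18 to P75, with a median log2 change of -0.42 beside 0.02 for all genes. In this step 22.9% of all tested genes fell and 25.9% rose. From P75 to 6 months 6 fell and 2 rose (median -0.30), beside 29.4% and 31.2% of all tested genes. From 6 to 24 months 3 fell and 1 rose (median -0.04), beside 12.7% and 16.6%. Scaled to the same total, 4 instead of 6 fell in the first step.

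Genes that regulate the inhibitors or lie downstream of them gave mixed counts, to be read against the shares of all tested genes, of which 25.9% rose and 22.9% fell from P18 to P75, 31.2% rose and 29.4% fell from P75 to 6 months, and 16.6% rose and 12.7% fell from 6 to 24 months. Trp53, which encodes p53, had means of 368, 287, 377 and 332, falling by 0.34 in the first step (adjusted p = 0.062) and rising by 0.40 in the second (adjusted p = 0.0266). Its antagonist Mdm2 fell in both steps, by 0.26 and 0.33 (adjusted p = 0.017 and 0.00288). Of 25 tested genes of the p53 pathway, 13 fell and 1 rose from P18 to P75 (8 and 1 at the same total), among them Plk3 (-0.95) and Phlda3 (-0.87), with a median of -0.25. From P75 to 6 months 5 of the 25 rose and 7 fell (median -0.03), with Sesn2 up by 2.25 (adjusted p = 1.35e-07 in limma). From 6 to 24 months 4 of the 25 rose and 1, Sesn2, fell (median 0.02), close to the shares over all genes. Sesn2 had means of 33.0 at P75, 157 at 6 months and 85.1 at 24 months. Of 29 regulators, such as Polycomb and FOXO genes, 14 fell and 2 rose in the first step (5 and 3 at the same total), the latter including the Polycomb gene Cbx7 (0.97, adjusted p = 9.42e-07). Rb1, the pocket protein that CDK4 phosphorylates, fell by 0.54 from P75 to 6 months (adjusted p = 0.000192). Among 12 tested Rb and E2F genes, 6 fell and 1 rose in the first step and 1 fell in the last. Among 14 tested other CDK-binding genes, 5 fell and 2 rose in the first step and 3 fell and 1 rose in the last, with the CDK5 activator Cdk5r2 called down, up and down. Of the 16 tested proliferation markers 4 fell and 3 rose from P18 to P75, and 6 fell and none rose from 6 to 24 months. Their levels ranged widely, with means of 1877 to 2366 for Pcna, a replication clamp. The 3 proliferation markers that rose in the first step were Mcm2 (0.89), Mcm7 (0.45) and Mcm4 (0.42). From P18 to 24 months 9 of the 16 fell and 4 rose, beside 34.3% and 34.7% of all tested genes. Mki67, 1 of the 4 that fell in the first step, had means of 87.9, 39.2, 23.7 and 11.2 and was called down in all 3 steps.

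Finally, other genes associated with senescence were set beside the inhibitors. Of 39 listed secreted factors 25 were tested, and 14 rose and 1 fell from 6 to 24 months, with a median log2 change of 0.36 beside 0.03 for all tested genes. Among them were the matrix glycoprotein Spp1 (0.70, adjusted p = 0.000232 in limma, means of 2328 and 3774) and Igfbp7 (0.76, adjusted p = 0.00142). Igfbp7 had fallen by 0.80 from P75 to 6 months (adjusted p = 5.98e-05 in limma). Its means were 285 at P75, 163 at 6 months and 277 at 24 months. From P75 to 24 months 20 of the secreted factors rose and none fell, beside 28.8% and 26.1% of all tested genes. In the same 6 to 24 month step none of the 5 tested CDK inhibitors rose and Cdkn2d fell, counts that are near the background, as 16.6% of all tested genes rose and 12.7% fell. Il6 had means of 1.84 to 3.29 and failed the filter. Of the 13 microglial markers 7 rose and none fell in this step (median 0.69), and their part in the counts of secreted factors was not tested. Lysosomal beta-galactosidase, encoded by Glb1 and used as a stain for senescent cells, rose by 0.52 from P18 to P75 (adjusted p = 0.00253) and by 0.59 from P75 to 6 months (adjusted p = 0.000582). Its change from 6 to 24 months was 0.19 (adjusted p = 0.266). Lmnb1, a lamin gene known to be lost in senescent cells, fell by 0.39 in the first step (adjusted p = 0.0147) and had a change of -0.18 in the last (adjusted p = 0.29). Of 15 tested other senescence-associated genes 2 rose and 7 fell in the first step, beside 25.9% and 22.9% of all tested genes. In the last step 2 rose and 1 fell.

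Cdkn1a and Cdkn1c also belong to a list of 18 glucocorticoid-responsive genes. Counting both members, 7 of the list fell and 2 rose from P18 to P75, beside 22.9% and 25.9% of all tested genes. From P75 to 6 months 12 fell and 2 rose (median -0.83), beside 29.4% and 31.2%. From 6 to 24 months 9 rose and none fell (median 0.33), beside 16.6% and 12.7%. Fkbp5, a classical glucocorticoid target, fell by 1.06 in the first step (adjusted p = 8.37e-05 in limma), and the metallothionein gene Mt2 fell by 2.41 in the second (adjusted p = 1.35e-07). Mt2 did not pass in the first step (-0.30, adjusted p = 0.214). Cdkn1c was called lower in both of these steps, Cdkn1a in the first, and neither was called in the last. These calls are part of the counts above and give no separate comparison with the list.

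**Figure D4:**
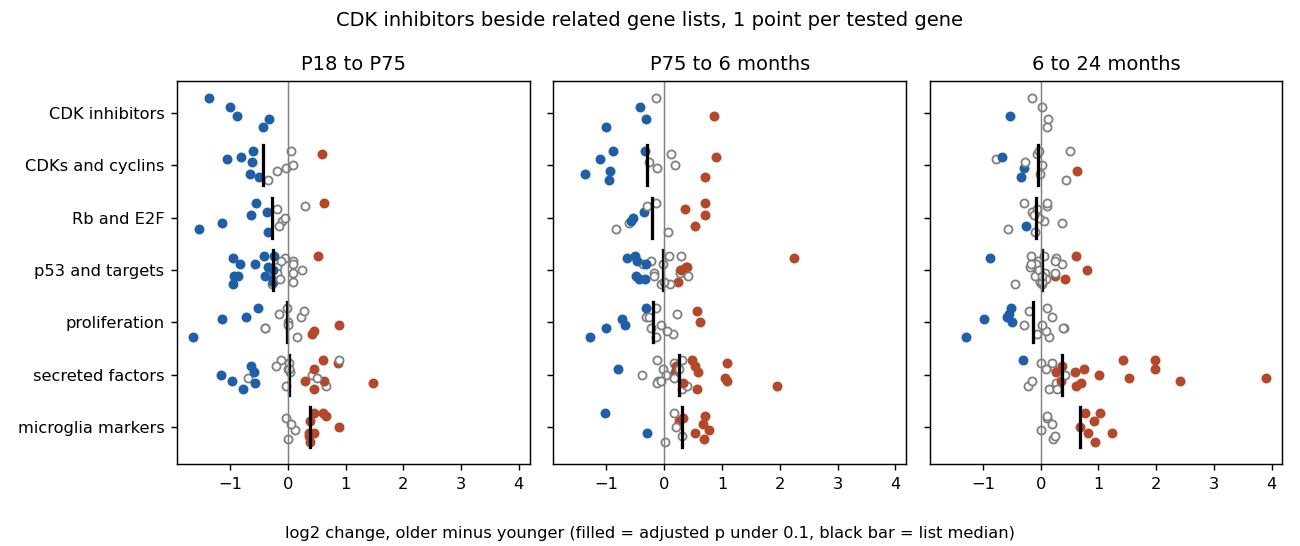
Log2 change between consecutive ages for each tested CDK inhibitor and each tested gene of 6 related lists, with filled points for an adjusted p under 0.1 (red higher, blue lower at the older age) and a black bar for the median of each list. From 6 to 24 months the medians of the secreted factors (0.36) and the microglial markers (0.69) lie to the right, while the CDKs and cyclins (-0.04) lie near 0.

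The fall of the inhibitors from P18 to P75 ran beside that of lineage markers. Of 10 markers of newly formed oligodendrocytes 9 fell and 1, Bcas1, rose in that step (median -1.06). Bcas1 was abundant, with a mean of 46351 in the P18 libraries and 89688 in the P75 libraries (log2 change 1.07). The sum of this list, Bcas1 included, did not fall. It lay between 34330 and 81312 in P18 libraries and between 82096 and 120220 in P75 libraries. Of 10 mature oligodendrocyte and myelin genes 8 fell in the same step (median -1.12), and of 10 precursor markers 5 fell and 2 rose (median -0.34). Of all tested genes 22.9% fell and 25.9% rose from P18 to P75. In the precursor list Olig2 (-1.31), Sox10 (-1.21), Olig1 (-1.12) and Neu4 (-1.10) were among the 5 that fell. The study used OLIG2 protein to mark the nucleus and cytoplasm of oligodendroglia. Which cells lie behind a fall in this list was not tested. The summed level of the precursor markers was 19510 to 20039 at P18, 11518 to 12125 at P75, 10967 to 11970 at 6 months and 9685 to 11253 at 24 months. Olig1 alone made up 53.9% to 56.1% of this sum at P18 and 40.6% to 43.3% at P75, and without it the sum was 8667 to 9232 at P18 but 6525 to 6976 at P75, before reaching 8434 to 9613 at 6 months. Pdgfra and Cspg4, the defining surface markers of precursors, did not pass the test from P18 to P75 (-0.04 and -0.24, adjusted p = 0.776 and 0.229). From P75 to 6 months 2 of the markers of newly formed oligodendrocytes rose, Enpp6 (0.97) and Gpr17 (0.63), and 4 fell, 9630013A20Rik (-1.78), Rras2 (-0.60), Tcf7l2 (-0.51) and Cnksr3 (-0.40), with a median of -0.07. From 6 to 24 months 4 of them fell and none rose. Over all tested genes 29.4% fell and 31.2% rose from P75 to 6 months. The shares were 12.7% and 16.6% from 6 to 24 months. The part of these cell populations in the values of the inhibitors was not tested.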

How the data were processed

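RNA-seq was performed on myelin-enriched membrane fractions of mouse brain, with 12 libraries at 4 ages grouped by their labels. Reads were mapped by the authors to mm9 with TopHat (TopHat2 2.0.8 in the submitters' processing notes), assigned to genes with HTSeq 0.5.4p1 and scaled by the size factors of DESeq. The deposited signal is this normalized read count per gene and library. The gene annotation, strand setting and handling of reads with several matches are not given in the sources used here. Values were not corrected for length by the authors. Divided by the value of 1 read, 100% of the values came out whole within 0.006, and these recovered reads gave the depth, 20299052 to 27214385 reads per library, and the counts behind low values.

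Ages were compared with limma 3.58.1 (R 4.3.3, empirical Bayes with trend) on log2(normalized read count + 1), in 1 fit over the 12 libraries with age alone in the design, for 14634 genes with a mean of at least 10. Adjusted p-values are Benjamini-Hochberg over all genes tested. The script was tested on simulated data. Members that failed the filter were compared by exact two-sided permutation of the means. Alternatives were pseudocounts of 0.5 and 10, no filter, a mean over 100, a fit of the 2 ages alone, a replicate block, a common total, quantile normalization, a false discovery rate of 0.05, edgeR 4.0.16 and DESeq2 1.42.0 on recovered reads, each library left out and, chosen after seeing the data, a GC correction with and without the block. Levels per kilobase used GENCODE vM1 on NCBIM37, where 96.3% of the symbols were found. Promoter sequences are RefSeq's on GRCm38.p6, with entries for 6 of the 7 members.

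The labels give the ages the same replicate numbers, although the mice differ. Same-numbered libraries deviated together between P75 and 6 months (r = 0.161, 0.101 and 0.187 over genes), and the pairing there rests on these correlations alone. With the block the same 4 of 5 tested members were called in that comparison.

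The members and all gene lists were chosen with earlier results of these data known. Named genes were the 7 members, the 3 genes most similar to each tested member, the direct CDK and cyclin partners, Trp53, Mdm2, Rb1, Glb1 and Lmnb1, and at most 4 called genes of each list with the largest change and a mean of at least 100 at 1 of the ages compared. Mki67, Il6, Pcna, Pdgfra, Cspg4, Tcf7l2, Cnksr3 and Bcas1 were added after their values were seen. The lists of astrocyte, neuron, endothelial, pericyte, ependymal, meningeal and red blood cell markers had 2, 0, 3, 1, 1, 1 and 0 genes that rose and 1, 3, 0, 1, 0, 0 and 0 that fell from 6 to 24 months. In that step 16.6% of all tested genes rose and 12.7% fell. From P75 to 6 months 3, 8, 4, 3, 4, 4 and 0 genes of these lists rose and 3, 3, 3, 0, 2, 0 and 1 fell. Of all tested genes 31.2% rose and 29.4% fell from P75 to 6 months. No other sample columns were in the table.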

Additional observations from a re-analysis of the deposited data

How the results depend on the processing

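Over all member changes and alternatives, 561 values kept direction and side of the threshold, 19 lost the call, 4 gained one and 6 changed sign. The 561 include changes that were not called in either fit. They also include fits without a library of an age outside the comparison, where the log2 change cannot move and only its adjusted p can. The count is therefore no measure of robustness. With a mean over 100 required, 3 members were tested and 3 were called from P18 to P75, 3 from P18 to 24 months, 3 for any age and 2 from P75 to 6 months. At the same total in each library, 3 members were called from P18 to P75. From 6 to 24 months 0 members were called without a filter, with a mean over 100, with the replicate block, at the same total, in DESeq2 or at a false discovery rate of 0.05, where 2856 of all genes were called. Leaving out single libraries gave 4 to 5 members from P18 to P75, 4 in each case from P75 to 6 months, 0 to 1 from 6 to 24 months (2478 to 5323 of all genes), 4 to 5 from P18 to 24 months, 2 to 4 from P75 to 24 months and 5 in each case for any age. The lowest of these counts of all genes came without 6 months replicate 1, and 2492 came without 24 months replicate 2, 2763 without 6 months replicate 2 and 2821 without 24 months replicate 1, beside 4287 with all libraries.

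Signs changed for Cdkn1a from P75 to 6 months without P75 replicate 2 (0.0135, in a range from -0.2842 over the libraries left out), for Cdkn1c from 6 to 24 months at the same total (-0.0135), after quantile normalization (-0.0465), without 6 months replicate 1 (-0.035) and without 24 months replicate 3 (-0.096, in a range up to 0.0907), and for Cdkn2c from 6 to 24 months after quantile normalization (-0.0113). None of these was called, and the cause was not tested. With the replicate block Cdkn2d lost its call from 6 to 24 months (adjusted p = 0.103 in limma), and no other member call changed. The block gave 6968, 8695 and 3996 called genes in the consecutive steps. Replicate numbers correlated at -0.213 to -0.06 between 6 and 24 months and at -0.151 to -0.026 between P18 and P75, so that the libraries share only a number there. Cdkn2c from P18 to P75 was also lost after the GC correction (adjusted p = 0.129), and with the block as well (0.161). Cdkn1a from P75 to 24 months gained a call in the fit of those ages alone (0.0843), after quantile normalization (0.064) and without P18 replicate 3 (0.0609) or P75 replicate 1 (0.0436). Quantile normalization moved the median of all genes from P18 to 24 months to -0.11. From 6 to 24 months the same total turned the split of 2435 higher and 1852 lower genes into 1394 and 1614. Depth limits Cdkn2a and Cdkn2b, with at most 11 reads in a library.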
